A study of Mus musculus with 54 samples.

Results

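Neutrophils were counted as barcodes of the 27 10x cell libraries that held at least 2 UMIs (molecule counts) of S100a8, at least 2 UMIs of S100a9, and no UMI of C1qa, Cd79a or Cd3e, which mark macrophages, B cells and T cells. The rule found 107 neutrophil barcodes among 77656 barcodes, all of them in C57BL/6J libraries. The study profiled adult mouse kidney after different tissue dissociation and storage workflows, with 27 libraries of cells, 12 of nuclei and 15 of bulk RNA. The C57BL/6J kidneys came from male AFAPIL.1DEL littermates of 19 weeks, so every group of that strain shared this genotype. They were dissociated either cold, with a protease of B. licheniformis on ice, or warm, with a commercial kit at 37 °C. Aliquots of each suspension were freshly profiled, cryopreserved for 6 weeks, or methanol-fixed in 80% methanol, giving 6 groups of 3 libraries on version 2 chemistry. The other 9 cell libraries were cold-dissociated Balb/c kidneys: 3 fresh libraries of 18-week male littermates on version 2 chemistry, and 3 fresh and 3 cryopreserved libraries (stored for 2 weeks) of 15-week wild-type females, former breeders, on version 3 chemistry. No mouse had been treated before its kidneys were taken. Each group of 3 came from kidneys of 3 mice, and aliquots of a suspension share their mouse.

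Neutrophils are short-lived granulocytes that leave the bone marrow mature, circulate in blood and enter tissue on inflammation. S100a8 and S100a9 encode the subunits of calprotectin, the most abundant cytosolic protein complex of these cells. Granule proteins are made in an order during maturation, the azurophilic ones in promyelocytes and the specific ones later, so a mature neutrophil holds the proteins but little of the early transcripts. Neutrophils carry little RNA for their size, and in an unperturbed kidney they lie mainly inside vessels. In the GRCm38 build both genes of the rule lie on chromosome 3 and are protein-coding, S100a8 at chr3:90668978-90670035 on the plus strand and S100a9 at chr3:90692632-90695721 on the minus strand.

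Whether the rule could be applied depended on the library. The study's methods state that genes seen in fewer than 10 cells were removed, and where S100a8 or S100a9 had no UMI in a library no barcode could meet the rule. The deposited barcodes do not follow this limit exactly: in 24 of 27 libraries 6 to 852 genes had UMIs in 1 to 9 barcodes, and in cold-dissociated fresh library 1 S100a8 was seen in 5 and S100a9 in 6. Both genes had UMIs in 12 libraries, which held 31433 barcodes, so the neutrophil barcodes made up 0.3404% of these (95% Wilson interval 0.282 to 0.411%). The rule could not be applied in 15 libraries, 6 of C57BL/6J and all 9 of Balb/c. Under the stated limit each of these may have held up to 9 barcodes with the missing gene. In the 3 warm-dissociated fresh libraries S100a9 had no UMI at all, while S100a8 was seen in 11, 12 and 12 barcodes. A count of 0 in those libraries is therefore not a measurement of absence, and warm and cold dissociation could be compared only among cryopreserved and methanol-fixed cells.

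The members held far more of the rule's genes than the rule asked for. S100a8 ran from 3 to 99 UMIs per barcode with a median of 36, and S100a9 from 2 to 86 with a median of 25. Together they took a median of 9.66% of a member's UMIs, with a range from 0.371 to 27.9%. By group, the median share of these genes was 13.9% of UMIs in cold-dissociated cryopreserved members, 12.2% in warm-dissociated cryopreserved, 8.43% in warm-dissociated methanol-fixed, 4.26% in cold-dissociated methanol-fixed and 4.14% in cold-dissociated fresh members. All these values were used by the rule and are given as a description. At the edge of the rule, 5 members held fewer than 5 UMIs of at least 1 of the 2 genes. Just outside it, 10 barcodes held at least 1 UMI of both genes without reaching 2 of both. Another 9 barcodes met the S100a8 and S100a9 minimum and were excluded, each of them by a UMI of C1qa, and each in a cryopreserved library. C1qa had a UMI in 10.7 to 22.8% of barcodes of the 6 C57BL/6J cryopreserved libraries and in 4.08 to 6.32% of those of the 12 fresh and methanol-fixed libraries. Among the fresh and methanol-fixed libraries in which the rule could be applied, no non-member held more than 3 UMIs of S100a8 or more than 1 of S100a9.

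**Figure D1:**
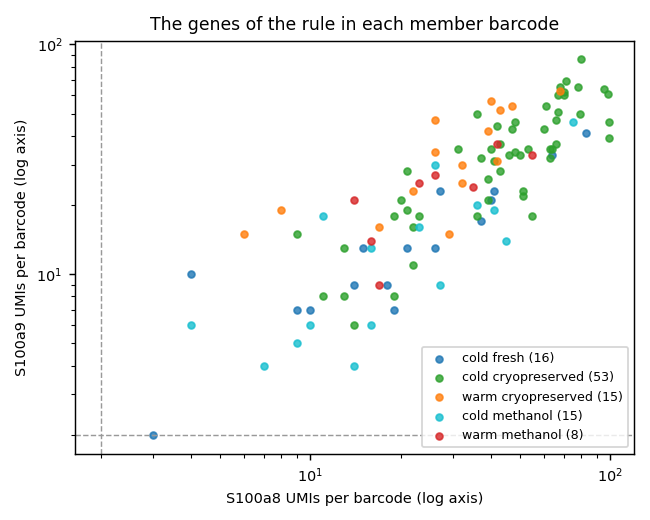
UMIs of S100a8 (x axis) and of S100a9 (y axis), both on log axes, in each of the 107 neutrophil barcodes, colored by group with the number of barcodes in brackets. Dashed lines mark the minimum of 2 UMIs, and most points lie far from it, around the medians of 36 and 25 UMIs.

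The label was checked against genes that the rule did not use. Of 20 genes taken as markers of mature neutrophils, 13 were listed in the C57BL/6J tables, and at least 1 of them was detected in 93 of 107 members (86.9%). By group this was 52 of 53 cold-dissociated cryopreserved members, 15 of 15 warm-dissociated cryopreserved, 8 of 8 warm-dissociated methanol-fixed, 12 of 16 cold-dissociated fresh and 6 of 15 cold-dissociated methanol-fixed members. These counts cannot be compared between groups. In at least 1 of the 3 cold-dissociated cryopreserved libraries 12 of the 13 genes had UMIs, while in both methanol groups only Mxd1 and G0s2 had. Mxd1 was not confined to members, with 43 UMIs in members and 506 in other C57BL/6J barcodes. G0s2 had 32, 21 and 37 counts in bulk RNA of intact Balb/c male kidneys, which held 1, 0 and 0 counts of S100a8. The share of other leukocyte barcodes with any of the 13 genes is not given here. Cxcr2, Ly6g, Asprv1 and the stefin genes Stfa2, Stfa2l1 and Stfa3 were not listed in these tables. None of the 5 azurophilic granule genes, which mark promyelocytes, was listed either. Among specific granule genes Ltf, Camp and Ngp were not listed, Pglyrp1 (a bactericidal peptidoglycan receptor) had 127 UMIs in 70 members, and Lcn2, an iron-scavenging lipocalin, had 25 UMIs in 15.

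Markers of other leukocytes were counted in the members as a description. The rule excluded barcodes with C1qa, Cd79a or Cd3e, so low counts of macrophage, B cell and T cell markers were partly fixed by it. No gene of the monocyte, T cell, NK cell and platelet lists had UMIs in every library with members. Monocyte markers had a UMI in 7 of 107 members, with 11 UMIs in all, macrophage markers in 5 with 6 UMIs, B cell markers in 9 with 9 UMIs, and T cell markers in 5 with 5 UMIs. NK cell and platelet markers had none, and the basophil and mast cell markers were not listed. MHC class II genes and Cd74, of the dendritic cell list, had 62 UMIs over 43 members, while Flt3, Xcr1, Clec9a and Cd209a had none where they were listed. Endothelial genes had 17 UMIs in 4 members, 14 of them in 1 member, and podocyte genes had 4 UMIs, all in that same member. Transcripts of tubule and red cells were more common, with 710 UMIs of proximal tubule genes in 67 members and 416 of hemoglobin genes in 40. They followed the storage of the cells: proximal tubule genes took 230 of 10,000 member UMIs in cold-dissociated fresh, 221 in cold-dissociated methanol-fixed and 135 in warm-dissociated methanol-fixed members, but 20.01 in warm-dissociated and 7.91 in cold-dissociated cryopreserved members. Hemoglobin genes took 44.5, 302 and 74.0 in the first 3 of these groups, none in warm-dissociated and 1.13 in cold-dissociated cryopreserved members. Of the 368 proximal tubule UMIs in cold-dissociated fresh members, 191 were in 1 member of library 2, which held 3773 UMIs. The part of tubule and red cell transcripts in the results below was not tested.

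The 20 genes with the largest fold of members over other barcodes were taken among genes seen in at least 20% of members. They are a description of the rule's catch, since the rule chose the members. The other barcodes were those of the 18 libraries of the strain with members, and the Balb/c libraries were not counted. The counts in other barcodes are low in part because many of these genes had no UMI in some of the 18 libraries. Csf3r had UMIs in 8 of them, Mmp9 and Hdc in 5, and Slpi and Hp in 11. The 20 genes were led by Retnlg, a resistin-like peptide of mouse neutrophils, with 236 UMIs in 42 members against 18 UMIs in these other barcodes. Slpi, a secreted inhibitor of neutrophil elastase, had 344 UMIs in 80 members against 265 in the other barcodes. Csf3r, the receptor for G-CSF, had 78 UMIs in 48 members against 108 in the other barcodes. Mmp9, a gelatinase of tertiary granules, had 35 in 25 members, Hdc, the enzyme that makes histamine, 38 in 24, and Hp, haptoglobin, 125 in 63. Il1b had 220 UMIs in 76 members and Cxcl2, a chemokine that attracts neutrophils, 307 in 48. Among the 18 libraries, Retnlg and Wfdc21 had a UMI only in the 3 cold-dissociated cryopreserved ones and Slc7a11 in 4. Whether the filter on cells per gene had removed them in the others was not tested, so these genes cannot be compared between groups.

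The members were small in RNA. They held 378 to 3773 UMIs with a median of 609, and 195 to 1086 genes with a median of 257, and 45 of 107 lay under 250 genes, close to the stated lower limit of 200, which 8 members did not reach. In each of the 12 libraries the median UMI count of members lay below that of the other leukocyte barcodes, which were barcodes with at least 3 UMIs over 8 genes of all leukocytes. Over the libraries the medians were 536 to 1960 in members and 1062 to 2023 in the others. Median genes per barcode were lower in members in 11 of 12 libraries. The mitochondrial share was higher in 11 of 12, with medians over libraries of 19.5 and 13.7%, and the share of ribosomal protein genes was lower in 12 of 12, with 4.29 and 16.5%. Between groups the median mitochondrial share of members ran from 13.4% in warm-dissociated cryopreserved to 36.2% in cold-dissociated fresh members. Of the 107 barcode sequences, 6 (5.61%) also occurred in another C57BL/6J library, against 2936 of all 47282 barcodes (6.21%), and none was a member in both. No doublet caller was run, and doublets were kept.

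How many neutrophil barcodes each preparation yielded was compared over libraries. Cold-dissociated fresh libraries held 1, 7 and 8 members among 2356, 4084 and 5411 barcodes, that is 0.0424, 0.171 and 0.148% (mean 0.121% ± 0.0687, SD, n = 3). Cold-dissociated cryopreserved libraries held 14, 14 and 25 among 897, 1629 and 993, or 1.56, 0.859 and 2.52% (1.65% ± 0.832, n = 3). Each cryopreserved library lay above each fresh library. Warm-dissociated cryopreserved libraries 2 and 3 held 9 and 6 members among 1000 and 1228 barcodes (0.694% ± 0.291, n = 2). Cold-dissociated methanol-fixed libraries 2 and 3 held 9 and 6 among 4672 and 5069 (0.156% ± 0.0525, n = 2). Warm-dissociated methanol-fixed libraries 2 and 3 held 5 and 3 among 3312 and 782 (0.267% ± 0.165, n = 2). The methanol-fixed libraries overlapped with the fresh ones, and the warm-dissociated with the cold-dissociated ones among both cryopreserved and methanol-fixed cells.

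None of the 6 comparisons of shares passed an exact two-sided permutation test over libraries with Benjamini-Hochberg adjustment. On the log2 scale the share of all barcodes was 3.66 higher in cold-dissociated cryopreserved than in fresh libraries (exact p = 0.1, adjusted p = 0.2), where 0.1 was the smallest p that 3 against 3 libraries allow. The 4 comparisons of cryopreserved or methanol-fixed with fresh libraries could not go below an exact p of 0.1 and so could not pass. Methanol-fixed and fresh cold-dissociated libraries differed by 0.40 (exact p = 0.8, adjusted p = 0.8). Warm-dissociated libraries differed from cold-dissociated ones, within cryopreserved and within methanol-fixed cells, by -0.18 (exact p = 0.75, adjusted p = 0.8). Library 1 of warm-dissociated cryopreserved cells and of both methanol groups had no UMI of either rule gene and did not enter. Whether a library entered thus depended on the genes being counted. With all 18 libraries of the strain and unmeasured ones set to 0 the difference was -1.65, and at their bound of 9 it was 0.234. The share of tubule cells differs between these preparations, so the members were also set against leukocyte barcodes, which made up 43.3 to 50.7% of barcodes in cold-dissociated cryopreserved and 7.81 to 12.2% in cold-dissociated fresh libraries. Of leukocyte barcodes, the members were 1.12% ± 0.500 (SD, n = 3) in cold-dissociated fresh, 3.35% ± 1.51 (n = 3) in cold-dissociated cryopreserved, 1.90% ± 0.648 (n = 2) in warm-dissociated cryopreserved, 2.46% ± 0.454 (n = 2) in cold-dissociated methanol-fixed and 6.00% ± 3.99 (n = 2) in warm-dissociated methanol-fixed libraries. Here the cryopreserved libraries were 1.40 higher than fresh on the log2 scale, and the methanol-fixed ones 1.09 higher, each with exact p = 0.1 and adjusted p = 0.2 and no overlap between groups. Cold-dissociated methanol-fixed library 1 had no UMI of either rule gene and was left out, while fresh library 1 stayed in. Over the 2 suspensions with both, the methanol-fixed ones were 0.79 higher. Warm and cold dissociation differed by 0.24 (exact p = 0.733, adjusted p = 0.8).

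Fresh, cryopreserved and methanol-fixed libraries with the same number were aliquots of the same suspension. Paired by suspension, cold-dissociated cryopreserved against fresh libraries gave an exact p of 0.25 for the share of all barcodes, the smallest that 3 pairs allow. The single member of cold-dissociated fresh library 1 held 1055 genes, 14 UMIs of endothelial and 4 of podocyte genes, and none of the mature neutrophil list. Without this library the share of all barcodes was 3.19 higher in cryopreserved than in fresh libraries, and -0.0729 in methanol-fixed against fresh ones.

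**Figure D2:**
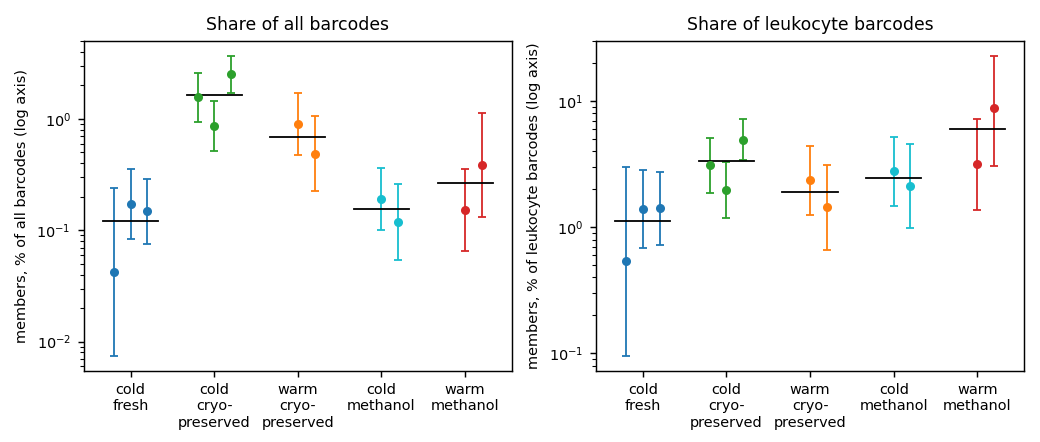
Neutrophil barcodes as a percentage of all barcodes (left) and of leukocyte barcodes (right), on log axes, in the 12 libraries in which the rule could be applied. Points are libraries with 95% Wilson intervals, which cover counting error only, and black lines are group means. On the left the cold-dissociated cryopreserved libraries, between 0.859 and 2.52%, lie above all cold-dissociated fresh libraries.

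Setting the members beside the other leukocyte barcodes of the same libraries shows how their transcriptomes differed outside the rule. UMIs were summed per library over members and over other leukocytes in the 11 libraries with at least 3 members and compared with edgeR's quasi-likelihood test with the library as a block. As the rule chose members by gene content, only genes it did not use were tested, and the comparison was added after the data were seen. Of 311 genes with enough UMIs, 78 (25.1%) were higher in members and 123 (39.5%) lower. With RLE size factors this split was 39 higher and 164 lower, so directions are relative to a median log2 fold change of -0.19.

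Msrb1, which repairs oxidized methionine, was the most clearly higher gene, at 19.9 to 64.6 UMIs per 10,000 in members against 1.22 to 3.37 in other leukocytes (log2 fold change 4.29 ± 0.253, SE, adjusted p = 9.0e-22). S100a11 was at 29.3 to 136 against 4.36 to 7.40 (log2 fold change 3.83), and S100a6 at 15.8 to 78.6 against 3.55 to 10.9 (2.83). Members lay above the other leukocytes of their own library in 11 of 11 libraries for each. Il1b, the precursor of interleukin-1β, was at 3.66 to 93.1 in members against 0.321 to 7.04 (log2 fold change 4.21), and the chemokine Ccl6 at 10.5 to 47.2 against 2.31 to 5.45 (3.15). Tyrobp, the adaptor of activating myeloid receptors, was at 40.9 to 135 against 13.7 to 25.8 (2.18). Taldo1, an enzyme of the pentose phosphate pathway that supplies NADPH, was higher by 2.87, Txn1, thioredoxin, by 2.78, Map1lc3b, of autophagosomes, by 2.601, and Cdk2ap2 by 2.83. Each of these 10 genes was higher in 11 of 11 libraries and passed the test with any library left out. Of the phagocyte oxidase genes that could be tested, Cyba and Rac2, both were higher, in 10 and 8 of 11 libraries.

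Antigen presentation genes were lower. They are also expressed in cells with C1qa or Cd79a, so the rule's exclusions acted on them too. Cd74, the invariant chain of MHC class II, had 34 UMIs in all members, at 0 to 8.96 per 10,000, against 251 to 394 in other leukocytes (log2 fold change -5.98 ± 0.309, SE, adjusted p = 2.6e-24). H2-Ab1 (-5.60), H2-Aa (-5.31) and H2-Eb1 (-5.97) behaved alike, and 6 of 6 tested genes of MHC class II with Cd74 were lower. Tmsb10, an actin-sequestering thymosin, was lower by a log2 fold change of -4.66, and Crip1 by -3.99. Of 78 ribosomal protein genes tested 73 were lower, among them Rpl35 (-3.02), and of 12 mitochondrially encoded genes 11 were higher. These families were chosen after the values were seen. C1qb (-5.34), C1qc and Igkc were also lower, and since they are expressed with C1qa and Cd79a, the rule itself removed barcodes that hold them. Members held no UMI of C1qc and Igkc.

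**Figure D3:**
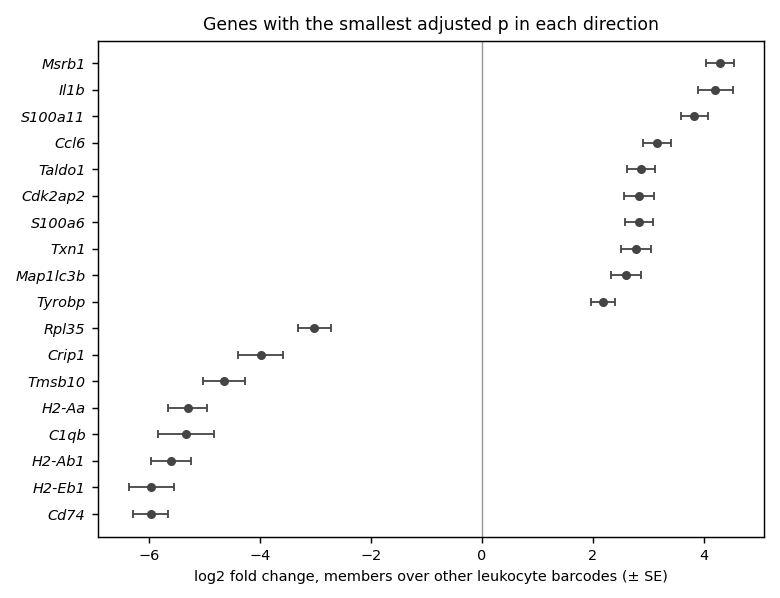
Log2 fold change with its standard error, members over other leukocyte barcodes of the same 11 libraries, for the 10 genes with the smallest adjusted p in either direction. Igkc and C1qc, which had no UMI in members, are left out. Msrb1, at 4.29, is at the top and Cd74, at -5.98, at the bottom.

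By function, receptors and adhesion molecules were seen in 96 of 107 members. Csf3r was seen in 33 of 53 cold-dissociated cryopreserved members, at 13.97 to 20.8 UMIs per 10,000 in the 3 libraries. In cold-dissociated fresh members it was seen in 7 of 15, at 3.51 to 14.7 in the 2 libraries with UMIs of it. In warm-dissociated cryopreserved members it was seen in 8 of 15, at 7.96 to 15.7. No methanol-fixed member held a UMI of it, and whether the filter had removed it there was not tested. Il1r2, a decoy receptor that binds interleukin-1, was at 19.9 to 31.3 in warm-dissociated cryopreserved libraries. It was at 2.91 to 2.99 in the 2 cold-dissociated cryopreserved libraries with UMIs of it. Cxcr4, which rises on aged neutrophils, was seen in 11 of 53 cold-dissociated cryopreserved members. Oxidase subunits were seen in 93 of 107 members, mostly as Cyba and Rac2, with Cybb in 1 member. Slpi was at 40.7 to 48.8 in cold-dissociated cryopreserved and 44.4 to 56.9 in cold-dissociated methanol-fixed libraries, and had no UMI in warm-dissociated methanol-fixed members. Mcl1, a short-lived protein that keeps neutrophils from apoptosis, was seen in 26 of 53 cold-dissociated cryopreserved members. Any of 11 survival genes, Mcl1 among them, was seen in 27 of these and in 10 of 15 warm-dissociated cryopreserved members. It was seen in 4 of 16 cold-dissociated fresh, 6 of 15 cold-dissociated methanol-fixed and 3 of 8 warm-dissociated methanol-fixed members.

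Between preparations, the UMIs of members were summed per library and 103 genes were tested with edgeR's quasi-likelihood test in the same 11 libraries. After warm dissociation, members held more RNA of Cebpb and Ifitm2, whichever library was left out. Of 103 genes 11 (10.7%) were higher and 1 (0.971%) was lower after warm than after cold dissociation, with cryopreserved and methanol-fixed cells weighted equally. Cebpb, a transcription factor of emergency granulopoiesis, was at 89.5 and 62.6 UMIs per 10,000 in warm-dissociated cryopreserved libraries against 13.9, 22.0 and 23.9 in cold-dissociated ones. After methanol fixation it was at 94.3 and 82.8 against 9.48 and 2.77. The groups did not overlap in either storage (log2 fold change 2.75 ± 0.357, SE, adjusted p = 8.1e-07), and the call held with each of the 11 libraries left out. The 4 warm-dissociated libraries were aliquots of only 2 suspensions and the fit took aliquots as independent, so its errors and p-values are too small. Ifitm2, an interferon-induced membrane protein, was at 57.7 and 26.8 against 25.9, 15.9 and 24.4 in cryopreserved cells and at 77.6 and 72.4 against 6.32 and 8.32 in methanol-fixed cells (log2 fold change 2.101 ± 0.362, adjusted p = 4.6e-05), and also held in all 11.

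G0s2 was also called with any library left out, with the limit given below, and the other 8 genes higher after warm dissociation each lost the call without at least 1 library. Fth1, the ferritin heavy chain, was at 285 and 197 against 77.6, 116 and 96.0 in cryopreserved and at 255 and 171 against 74.2 and 94.3 in methanol-fixed cells (log2 fold change 1.32 ± 0.285, adjusted p = 0.0010). Without cold-dissociated methanol-fixed library 2 its adjusted p was 0.161, without library 3 of that group 0.058, and without warm-dissociated methanol-fixed library 2 it was 0.105. Il1b was at 45.8 and 24.6 against 29.9, 25.7 and 36.7 in cryopreserved cells, which overlapped, and at 77.6 and 93.1 against 4.74 and 25.0 in methanol-fixed cells (log2 fold change 1.40, adjusted p = 0.0097). It passed in 3 of the 11 fits that left a library out. Srgn, the granule proteoglycan serglycin, passed in 8 of 11, Wfdc17 in 7, Cd14, the co-receptor for lipopolysaccharide, in 5, and Nfkbia, the inhibitor of NF-kB, in 4. Wfdc17 turned to a log2 fold change of -0.50 without warm-dissociated methanol-fixed library 2, where it was at 183 UMIs per 10,000. G0s2 and Cxcl2 were called higher and Slpi lower, but each was at 0 in at least 1 library whose table held no UMI of it. In libraries with UMIs G0s2 was at 24.6 to 77.6 in warm-dissociated and 0 to 8.32 in cold-dissociated members, and among cryopreserved cells Cxcl2 was at 141 and 107 against 45.8, 46.5 and 44.8. Among cryopreserved cells, the only ones with Slpi UMIs in both arms, Slpi was at 115 and 26.8 against 48.8, 46.5 and 40.7, which overlapped. A block on the replicate number left 7 genes higher.

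The 17 stress-response-related genes that the study selected on these samples, among them Fos, Jun and heat shock genes, are not independent evidence of a direction. Of these, 5 could be tested (Btg1, Dusp1, Fos, Junb and Jund), and 0 of 5 changed between warm and cold dissociation by edgeR's quasi-likelihood test (1 at an unadjusted p under 0.05, Btg1, and 0 by DESeq2), with a median log2 fold change of 0.69 beside -0.06 over all genes tested. The summed level of the 17 genes was 166 to 267 UMIs per 10,000 in the 3 cold-dissociated cryopreserved libraries, 139 and 143 in warm-dissociated cryopreserved, 194 and 202 in warm-dissociated methanol-fixed, 69.5 and 36.1 in cold-dissociated methanol-fixed, and 30.6 to 52.6 in cold-dissociated fresh libraries. Among cryopreserved members the cold-dissociated libraries lay above the warm-dissociated ones, and among methanol-fixed members below them.

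**Figure D4:**
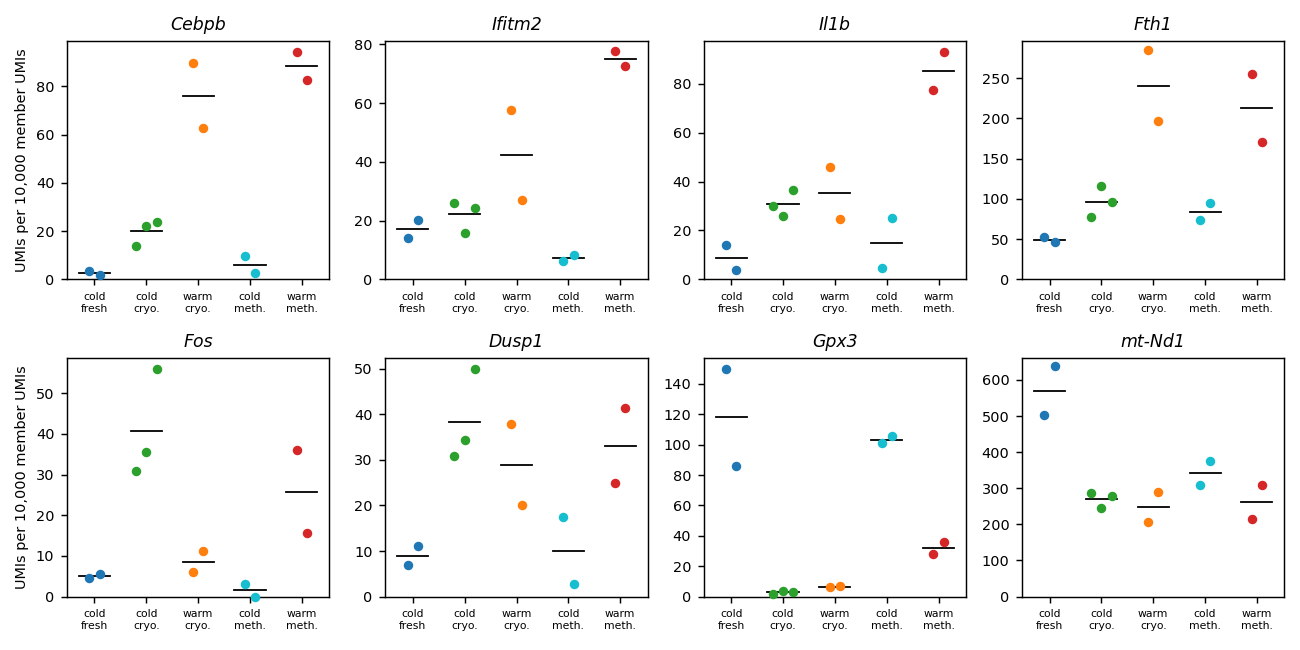
UMIs per 10,000 member UMIs of 8 genes in the 11 libraries with at least 3 neutrophil barcodes, as points by group (cryo., cryopreserved; meth., methanol-fixed), with group means as black lines. Cebpb is at 62.6 to 94.3 in the 4 warm-dissociated libraries and at or below 23.9 in the 7 cold-dissociated ones, and Gpx3 is at or below 6.71 in cryopreserved libraries.

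Cryopreservation was compared with fresh profiling in cold-dissociated members, 3 libraries against 2. Of 103 genes 12 (11.7%) were higher and 18 (17.5%) lower in cryopreserved members, around a median log2 fold change of 0.21. With a block on the suspension number these were 7 and 15. Of the proximal tubule and hemoglobin genes, 7 of 7 tested were called lower, but cold-dissociated cryopreserved library 1 held no UMI of Hbb-bs and Hba-a2, which are not counted further. Gpx3, a peroxidase secreted by the proximal tubule, was at 1.99, 3.67 and 2.91 UMIs per 10,000 in cryopreserved against 150 and 86.1 in fresh members (log2 fold change -5.92 ± 0.467, SE, adjusted p = 3.8e-12). Fxyd2, a regulator of the tubule's sodium pump, was at 2.99, 1.22 and 2.33 against 19.9 and 38.5 (-4.13), and Kap, the androgen-regulated kidney protein, at 1.99, 1.22 and 1.16 against 9.36 and 53.1 (-4.75). Spink1 was at 12.8 and 16.4 in fresh members and had 2 UMIs in all of the cold-dissociated cryopreserved members. Hba-a1 was at 5.85 and 12.8 in fresh members and had no UMI in cryopreserved members. The other 5 genes passed with each library left out, and the 4 proximal tubule genes had a median log2 fold change of -4.83. In cold-dissociated fresh library 2, 1 member held 116 Gpx3 UMIs and 3773 of the 8550 member UMIs. A fit without this member was not run.

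Mitochondrially encoded genes were lower as well, 8 of 11 tested, of which 6 passed with the block. mt-Nd1, a subunit of complex I, was at 286, 246 and 279 UMIs per 10,000 in cryopreserved against 502 and 639 in fresh members (log2 fold change -1.68, adjusted p = 0.0011), mt-Atp6 at 267, 229 and 283 against 851 and 564 (-2.07), and mt-Cytb at 338, 268 and 256 against 623 and 663 (-1.77). These 3 passed with each library left out, and the other 5 did not without cold-dissociated fresh library 2 or 3. The remaining 3 lower genes, Ndufa4, Cox4i1 and Cox6c, encode nuclear subunits of the respiratory chain and are named after their values were seen.

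All 5 stress-response-related genes that could be tested were higher in cryopreserved members, with a median log2 fold change of 1.71. Fos, an immediate-early transcription factor, was at 30.8, 35.5 and 55.9 UMIs per 10,000 against 4.68 and 5.497 (log2 fold change 2.41 ± 0.580, SE, adjusted p = 0.0016) and passed with each library left out. Dusp1, a phosphatase that switches off MAP kinases, was at 30.8, 34.3 and 50.0 against 7.02 and 10.99 (1.55, adjusted p = 0.025), Junb at 23.9, 34.3 and 43.1 against 11.7 and 0 (1.68), Jund at 13.9, 31.8 and 18.04 against 3.51 and 3.66 (1.88), and Btg1 at 26.9, 18.4 and 20.4 against 4.68 and 3.66 (1.71). These 4 lost the call without cold-dissociated cryopreserved library 3, with adjusted p between 0.063 and 0.146, and without at least 1 of the fresh libraries. Cebpb (2.16), Rps27a (1.64), H3f3b and Nfkbia were higher too, and failed without cold-dissociated fresh library 2 or 3. With the block, Btg1, Junb, Rps27a, H3f3b and Nfkbia lost the call. By DESeq2 3 genes were higher and 15 lower. Retnlg and Cxcl2 were called higher, but neither had a UMI in the fresh libraries. Whether the filter had removed them there was not tested. Proximal tubule genes together took 7.57 to 8.57 UMIs per 10,000 of the cryopreserved and 273 and 231 of the fresh sums in this comparison, and the part of this difference in the other calls was not tested.

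Methanol fixation was compared with fresh profiling in cold-dissociated members, 2 libraries against 2. Of 103 genes 2 (1.94%) were higher and 4 (3.88%) lower. Hba-a1 was at 72.7 and 119 UMIs per 10,000 in methanol-fixed against 5.85 and 12.8 in fresh members (log2 fold change 2.80, adjusted p = 4.2e-04), and Hbb-bs at 117 and 191 against 12.9 and 36.6 (2.09). Actb, cytoskeletal actin, was at 17.4 and 25.0 against 87.7 and 108 (-2.84, adjusted p = 3.4e-04), and Malat1, a nuclear noncoding RNA, at 66.3 and 44.4 against 338 and 218 (-2.92). mt-Nd4 (-1.84) and Rps29 (-2.19) were lower as well. These genes were picked because they were called, and 2 libraries against 2 separate easily. The groups did not overlap for any of them, but the share over all 103 genes was not counted. Actb held with each library left out, and the others failed without cold-dissociated methanol-fixed library 3, with adjusted p between 0.093 and 0.212.

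Bulk RNA-seq of the same kinds of sample, which the rule did not use, gave a second view of these genes. The number of neutrophils, the RNA per neutrophil and expression in other kidney cells cannot be told apart there. Counts were tested over all genes with edgeR's quasi-likelihood test, and the 28 genes of the rule, the mature neutrophil list and the specific granule list were read from that fit. In fresh C57BL/6J suspensions of 5969212 to 8184923 counts, 8 of the 28 genes passed the filter on low counts, which removes genes low in both groups. Of these, 2 were higher and 2 lower after warm dissociation, where 5.42% and 3.26% of all 14102 genes were called. Csf3r was at 39, 34 and 42 counts in warm-dissociated against 83, 60 and 67 in cold-dissociated suspensions, or 5.20 ± 0.374 against 10.3 ± 0.317 CPM (counts scaled to the library total; SD, n = 3), with a log2 fold change of -1.003 (± 0.166, SE, adjusted p = 0.0027). Mmp9 was at 11, 6 and 7 against 27, 16 and 17 counts (log2 fold change -1.44, adjusted p = 0.013). The Mmp9 call was lost without cold suspension 1 or warm suspension 3, with adjusted p of 0.060 and 0.062, and by DESeq2. S100a8 was at 8, 7 and 10 against 16, 12 and 16 counts (-0.94, adjusted p = 0.094) and S100a9 at 7, 11 and 16 against 16, 14 and 20 (-0.69, adjusted p = 0.29). For S100a8 the groups did not overlap, but neither gene passed the test.

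In the other direction, Hdc was at 17, 23 and 19 counts after warm against 4, 3 and 3 after cold dissociation (log2 fold change 2.39 ± 0.376, SE, adjusted p = 0.0020), and Lcn2 at 16, 30 and 41 against 9, 6 and 10 (1.65, adjusted p = 0.024). Lcn2 failed without cold suspension 1 or 2 or warm suspension 2 or 3, with adjusted p from 0.058 to 0.101. Il1r2 and Trem1, an activating receptor of myeloid cells, were too low for the filter. Their counts were 15, 8 and 11 against 0, 4 and 3 for Il1r2 and 8, 10 and 10 against 0, 3 and 2 for Trem1. Other leukocyte genes moved with the warm suspensions: 6 of 8 genes of all leukocytes, 5 of 7 monocyte, 4 of 5 B cell and 1 of 5 macrophage markers were lower. Of 4 T cell markers 1 was higher, and 8 of 11 cytokine genes were higher. Their part in the neutrophil genes' differences was not tested.

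In Balb/c females, cold-dissociated suspensions were compared with intact kidney, which holds the neutrophils of vessels and tissue before any dissociation. At 21984996 to 31093949 counts, 10 of the 28 genes passed the filter, and 4 were higher and 1 lower in suspensions, where 7.91% and 12.1% of 16538 genes were called. S100a8 was at 29, 12 and 51 counts in suspensions against 7, 8 and 10 in intact kidney (log2 fold change 2.19 ± 0.543, SE, adjusted p = 0.020), S100a9 at 69, 18 and 85 against 19, 5 and 21 (2.27 ± 0.613, adjusted p = 0.028), and Csf3r at 77, 56 and 106 against 31, 24 and 29 (1.83 ± 0.288, adjusted p = 0.0019). Suspension 2 was the lowest of the 3 suspensions for each of these genes, and its S100a9 lay within the range of intact kidney in counts. The S100a8 and S100a9 calls were lost without intact kidney 1 or 2 or suspension 1 or 3, with adjusted p from 0.055 to 0.099, while Csf3r held with each library left out. Mxd1, a repressor induced in late granulocyte maturation, was higher by 0.31. Retnlg had 15, 6 and 16 counts in suspensions and none in intact kidney, and Cxcr2 13, 4 and 22 against 2, 1 and 1, both too low for the filter. Hdc was lower (-1.67), at 697 to 1442 counts in suspensions and 3387 to 5448 in intact kidney. In these female samples its level was thus far above that of S100a8, S100a9 and Csf3r. Of the other lists, 7 of 8 genes of all leukocytes, 4 of 5 macrophage markers and 4 of 4 hemoglobin genes were higher in the suspensions too, and of the 17 stress-response-related genes 1 was lower. Intact kidneys of Balb/c males, sequenced less deeply, held 1, 0 and 0 counts of S100a8 and 16, 3 and 13 of Csf3r. The Csf3r counts were 2.03, 1.29 and 2.66 CPM against a mean of 0.932 in intact female kidneys, a difference that was not tested. The male kidneys also held 153, 57 and 99 counts of Mxd1 and 4, 0 and 1 of Hdc.

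**Figure D5:**
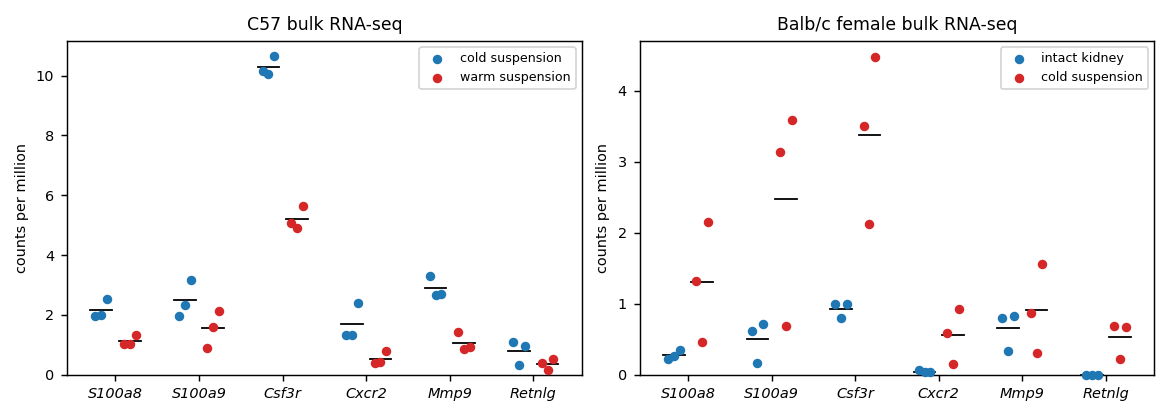
CPM of 6 neutrophil genes in each bulk library, with group means as black lines: C57BL/6J cold-dissociated and warm-dissociated suspensions (left), and Balb/c female intact kidneys and cold-dissociated suspensions (right). Csf3r, at a mean of 10.3 CPM in cold-dissociated and 5.20 in warm-dissociated C57BL/6J suspensions, has the highest mean of the 6 in each group.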

How the data were processed

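The 10x files hold UMI counts per gene and barcode, deposited by the authors without normalization after alignment with Cell Ranger 2.1.1 to mm10 and filters on genes (at least 10 cells) and barcodes (200 to 3000 genes, under 50% mitochondrial, no outliers in UMIs per gene). The deposited barcodes depart slightly from these limits, with as few as 180 genes, 1 member at 50.1% mitochondrial UMIs and genes in 1 to 9 barcodes. The bulk files hold featureCounts read counts per gene, deposited by the authors after STAR 2.6.1a alignment to GRCm38. Whether counting used strand or kept duplicates is not given in the sources used here. Intervals cover counting error only.

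The 12 libraries with members held 782 to 5411 barcodes and 983522 to 8051722 UMIs. Levels are UMIs per 10,000 member UMIs. Shares were compared as log2((n + 0.5)/(N + 1)) by exact permutation within strata. This departs from the plan in using only the 12 libraries where both rule genes had UMIs. Sums per library and bulk counts were tested with edgeR 4.0.16 in R 4.3.3 (TMM, filterByExpr, Benjamini-Hochberg, adjusted p 0.05), with DESeq2 1.42.0 as an alternative. Libraries were separate kidneys or aliquots of a suspension. Permutation and fits without a block treated aliquots as independent, and so did the fit against other leukocytes, whose block was the library. On simulated data, recovery was counted only over changed genes that passed the filter on low counts. Of such 8-fold changes between sums, 90 to 100% were recovered with 0% false calls. Of 200 genes changed 4-fold in C57BL/6J bulk, 119 passed the filter, and 100% of these were recovered with 7.75% false calls. Against other leukocytes 55 of 62 genes changed 4-fold passed it, and 90.9% of these were recovered with 1.96% false calls. Besides genes of the lists, the text names the 20 genes of largest fold in members and up to 10 called genes per direction with the smallest adjusted p. The members and lists were chosen with earlier results of these data known. Bulk libraries with the same replicate number had correlations of deviations of 0.172 to 0.322 in Balb/c females and -0.0746 to 0.0963 in C57BL/6J. Whether equal numbers of bulk libraries share an animal was not established. Results on some withheld genes are not reported here.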

Additional observations from a re-analysis of the deposited data

Results flagged for a closer look

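Barcodes rich in S100a8 or S100a9 were present in libraries where the other gene of the rule had no UMI, so that no barcode there could be a member. In Balb/c female fresh library 1, 8 barcodes held 27 to 166 UMIs of S100a9, and 7 of the 8 held Csf3r and 7 of the 8 Cxcr2. In the warm-dissociated fresh C57BL/6J libraries, 5 barcodes held 13 to 281 UMIs of S100a8, 2 in library 1 and 3 in library 2, and the 3 of library 2 each held UMIs of Slpi and Hp. The barcode with 281 UMIs also held 5 UMIs of the monocyte marker Ly6c2.

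Among the 12 nuclei libraries S100a8 was not listed, and S100a9 had UMIs in 1 library only, female sucrose-gradient nuclei replicate 2, with 19 UMIs over 11 barcodes and at most 7 in a barcode. Csf3r had 21 to 36 UMIs in each of the 9 female nuclei libraries. No group of cell libraries had 4 or more, so outlying libraries were not tested for.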

How the results depend on the processing

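The number of neutrophil barcodes stayed between 93 and 120 under the 6 other rules tried. Alternatives added after the data were seen are those on libraries without a UMI of a rule gene, the pairing by suspension, and all on other leukocytes. Values of shares are log2 differences. The share of all barcodes after warm against cold dissociation turned to 0.416 among members with a mature neutrophil gene, 0.0063 after thinning to 500 UMIs and 0.234 with unmeasured libraries at their bound, and was -1.65 with them at 0. For methanol-fixed against fresh it turned to -0.0416 with a mature neutrophil gene and to -0.0729 in the replicate block by suspension. Of leukocytes, warm against cold turned to -0.0609 with 1 rule gene accepted where the other had no UMI, and to -1.05 with unmeasured libraries at 0, and was 0.837 at the bound. With cold and warm libraries together, the smallest possible p was lower. Cryopreserved against fresh then passed the test at 3.78 with 1 rule gene, 3.94 at 0 and 2.53 at the bound. Its share of leukocytes at the bound was 0.283 (exact permutation p = 0.625). Methanol-fixed against fresh of leukocytes passed at 2.01 with 1 rule gene. That setting left out library 1 of both methanol groups and of warm-dissociated cryopreserved cells, which had no UMI of either gene, and kept all fresh libraries of the strain. With unmeasured libraries at 0 this difference was 1.83 and at the bound 1.13, and neither passed (exact permutation test, adjusted p = 0.15 and 0.129). Values set to 0 or 9 are assigned, not measured, and do not bound the difference. The cause of these changes was not tested.

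Without 1 library each, the share of all barcodes ranged from -0.542 to 0.172 for warm against cold, 3.19 to 4.06 for cryopreserved and -0.0729 to 0.732 for methanol-fixed against fresh. Of leukocytes it ranged from -0.142 to 0.619, 1.07 to 1.72 and 0.790 to 1.26.

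For summed members, genes higher after warm dissociation numbered 5 without a filter on low counts, 7 in libraries with at least 5 members and 7 with the replicate block, and genes lower 0 among genes with a UMI in each library. Genes higher after cryopreservation numbered 3 by DESeq2, 19 without a filter, 6 among members with a mature neutrophil gene and 7 with the replicate block. After methanol fixation 2 were lower without a filter and 1 was higher among genes with a UMI in each library. Leaving out 1 library gave 3 to 11 higher and 1 to 9 lower for warm against cold, 3 to 15 and 16 to 24 for cryopreserved, and 0 to 4 and 1 to 14 for methanol-fixed against fresh. Wfdc17 ranged from -0.50, without warm-dissociated methanol-fixed library 2, to 2.73. Among named genes, 277 alternatives gave the status of the main fit, called or not called, 88 lost the call and 1 reversed direction. For summed members the lowest and the highest leave-one-out value each count as an alternative, both judged by the largest adjusted p. No fit of Balb/c female sums was run, as no member was found there.

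Against other leukocytes 39 genes were higher with RLE size factors, and 368 were higher and 258 lower without a filter. Leaving out 1 library gave 66 to 95 higher and 111 to 138 lower. In bulk, C57BL/6J genes higher numbered 4 without a filter and genes lower 1 by DESeq2, with 1 to 2 in each direction when 1 library was left out. Balb/c genes higher numbered 7 without a filter, and 2 to 6 when 1 library was left out. The replicate block left the bulk counts at 2 higher and 2 lower in C57BL/6J, and at 4 higher and 1 lower in Balb/c.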
